A study of Mus musculus with 2 samples.

Results

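The genes described here are 41 mouse genes of glucose breakdown and of the hypoxia response: Hif1a, 23 genes of glycolysis and its transporters and regulators, and 17 other known targets of the transcription factor HIF1. They were chosen by name, enzyme by enzyme and isoform by isoform, out of 20651 genes that had at least 1 matched probe. All 41 matched, through 67 probes, and 16 of them had several probes. Expression was measured on one-colour (Cy3) mouse arrays of 2 cultures labelled Th9, 1 array per genotype. One culture came from mice of genotype SIRT1flox/flox-CD4-Cre (KO), in which the CD4 promoter drives Cre in developing T cells, and the other, its control, from wild-type mice (WT). No age of the animals and no Cre-only control are given in the labels. As described by the submitters, both cultures began with naive CD4 T cells sorted from spleen and lymph node, activated with anti-CD3 (2 µg/ml), anti-CD28 (2 µg/ml) and IL-2 (100 U/ml), and kept with IL-4 (10 ng/ml) and TGFβ1 (2 ng/ml). The descriptions give 5 days of culture, and the protocol gives 5 to 6.

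With 1 array for each genotype no test between genotypes exists, and no p-value is given. Each value is the scanner's background-subtracted signal, and each difference is KO minus WT in log2 units after each array was set to its own 75th percentile (520 on the KO array and 544 on the WT array). The ± after a difference is the scanner software's own error carried through to the log2 scale (median 0.20 over all genes), which covers the reading of the spot and not the spread between mice or cultures. Sirt1 itself had 1 probe, with signals of 2920 on the KO array and 3240 on the WT array, a difference of -0.08 ± 0.20. Whether that probe lies in the deleted part is not known, so it does not check the genotype labels. Il9, the cytokine that defines Th9 cells, gave 7.36 on KO and 5.48 on WT, below the scanner's detection limit in each case, while all 8 B cell markers were detected on both arrays. The B cell markers ran from 35.4 to 35900 on KO and from 98.7 to 50400 on WT. T cell markers ran from 1020 to 28200 on KO and from 1500 to 25100 on WT. Detected here means that the scanner software marked the spot as well above background. KO and WT below, like the cell type and its origin, are therefore labels that these arrays do not check. KO had 65.3% of its spots well above background and WT had 57.1%, and neither array had a saturated gene spot.

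Glycolysis splits glucose to pyruvate in the cytosol, and activated T cells run it fast and export much of the carbon as lactate. HIF1 is a pair of proteins, HIF1α (from Hif1a) and ARNT. When oxygen is scarce, or when T cell receptor and mTOR signalling are strong, HIF1α accumulates and the pair raises transcription of glucose transporters, of most glycolytic enzymes and of genes for mitophagy, collagen hydroxylation and vessel growth. SIRT1 is a deacetylase that depends on NAD, and HIF1α is among the proteins it has been reported to act on. HIF1α is controlled mainly by protein stability, so Hif1a mRNA reports only part of it.

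HIF1 binds short DNA elements with the core ACGTG or GCGTG, and 6 members' promoters that hold ACGTG are printed for that reason: 5 of members at least 0.5 higher or lower, and that of Ldha, a classical HIF1 target with several copies of the motif. P4ha2 also passed the cut of 0.5 and holds ACGTG, but its window is not printed. RefSeq windows of GRCm38.p6 were found for 37 of the 41 members, Slc2a3, Bnip3l, Plod2 and Ndrg1 being those not found, and the 250 bases before the gene's start were searched on both strands. Where a gene had several windows, only the most upstream on its strand was searched. The 6 windows below run 5′ to 3′ on the gene's strand, and capitals mark ACGTG or its reverse complement CACGT. They lie at chr10:59323046-59323295 (P4ha1, plus strand), chr10:59951771-59952020 (Ddit4, minus strand), chr2:11553930-11554179 (Pfkfb3, minus strand), chr3:104638414-104638663 (Slc16a1, plus strand), chr7:138909507-138909756 (Bnip3, minus strand) and chr7:46845554-46845803 (Ldha, plus strand).
P4ha1: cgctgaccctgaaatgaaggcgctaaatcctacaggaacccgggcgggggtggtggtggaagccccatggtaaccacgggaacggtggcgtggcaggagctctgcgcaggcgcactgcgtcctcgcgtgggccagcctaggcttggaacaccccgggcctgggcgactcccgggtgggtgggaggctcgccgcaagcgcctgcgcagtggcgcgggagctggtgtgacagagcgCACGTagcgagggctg
Ddit4: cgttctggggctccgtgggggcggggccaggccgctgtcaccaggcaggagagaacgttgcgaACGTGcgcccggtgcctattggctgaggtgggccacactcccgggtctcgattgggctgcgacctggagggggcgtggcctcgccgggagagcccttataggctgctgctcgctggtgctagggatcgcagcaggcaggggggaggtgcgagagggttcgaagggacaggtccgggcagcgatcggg
Pfkfb3: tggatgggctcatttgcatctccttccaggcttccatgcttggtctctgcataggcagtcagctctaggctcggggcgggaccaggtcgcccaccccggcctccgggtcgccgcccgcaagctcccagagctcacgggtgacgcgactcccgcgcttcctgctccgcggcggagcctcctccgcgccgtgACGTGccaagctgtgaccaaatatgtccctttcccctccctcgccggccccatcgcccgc
Slc16a1: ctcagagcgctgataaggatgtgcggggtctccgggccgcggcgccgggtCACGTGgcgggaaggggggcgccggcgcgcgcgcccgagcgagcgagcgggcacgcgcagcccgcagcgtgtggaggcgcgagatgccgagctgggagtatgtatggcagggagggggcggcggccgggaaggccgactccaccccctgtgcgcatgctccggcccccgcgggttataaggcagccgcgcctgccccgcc
Bnip3: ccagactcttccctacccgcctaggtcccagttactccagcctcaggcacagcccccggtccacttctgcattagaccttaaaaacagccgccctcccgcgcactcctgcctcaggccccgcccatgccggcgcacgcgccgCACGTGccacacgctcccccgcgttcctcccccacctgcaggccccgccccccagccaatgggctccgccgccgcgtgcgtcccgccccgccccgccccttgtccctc
Ldha: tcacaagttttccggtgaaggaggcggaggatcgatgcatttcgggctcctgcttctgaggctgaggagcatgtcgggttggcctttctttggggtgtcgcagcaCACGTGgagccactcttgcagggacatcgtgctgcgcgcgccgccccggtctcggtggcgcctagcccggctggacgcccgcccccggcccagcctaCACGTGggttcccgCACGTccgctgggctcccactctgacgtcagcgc
In Slc16a1, Bnip3 and Ldha the capitals include CACGTG, the palindrome known as the E-box that MYC and related factors also bind, and which counts as ACGTG on both strands. ACGTG was present in 17 of the 37 members' windows (45.9%), against 16.5% of 27025 windows in the whole table. GCGTG, searched the same way, was present in 21 members' windows (56.8%), against 28.3% of all, and at least 1 of both motifs in 29 (78.4%), against 38.6% of all. CACGTG was found in 5 members' windows (13.5%), against 6.04% of all. The members' windows were also richer in G and C, with a median of 62.8%, against 52% in all windows, and the motif shares were not adjusted for that. Among members with a window, 4 of the 6 that were at least 0.5 higher on KO held ACGTG (Pfkfb3, P4ha1, P4ha2 and Ddit4), and so did 2 of the 3 that were at least 0.5 lower (Slc16a1 and Bnip3). The cut of 0.5 lies under the call threshold of 2-fold. Several of these members' directions did not hold on a second probe (Bnip3 and Pfkfb3) or under another background correction (Eno2, P4ha2 and Adm). A match is a string of letters and not a binding site.

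Few of the 41 genes differed by 2-fold. Of the 41, 38 were well above background on both arrays, 19 higher and 19 lower on KO, with a median difference of 0.02, against 0.00 over all 12958 genes measured on both arrays. With each array centred on its median 26 were higher and 12 lower, with a median of 0.20, against 0.19 over all genes. The call threshold was 2-fold. Past it was 1 member that was higher, P4ha1, against 512 of all genes (3.95%), and no member that was lower, against 471 of all genes (3.63%). P4ha1 was read there by a probe that is the brighter of its 2 only through its KO signal, and the other probe gave 0.26. Beyond the scanner's error, 11 members were higher and 12 lower, and 15 lay within it. The same count over all genes was 29.9% higher and 30.6% lower, so the members' shares (28.9% and 31.6%) were close to those of all genes. The 23 glycolysis members had a range of -0.90 to 0.82 and a median of -0.09, which became 0.10 with that centring (which moves every gene up by 0.19) and 0.01 under normexp, a model-based background correction. The 14 other HIF1 targets measured on both arrays had a range of -0.80 to 1.39 and a median of 0.17, which became 0.35 with median centring and -0.03 under normexp.

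**Figure D1:**
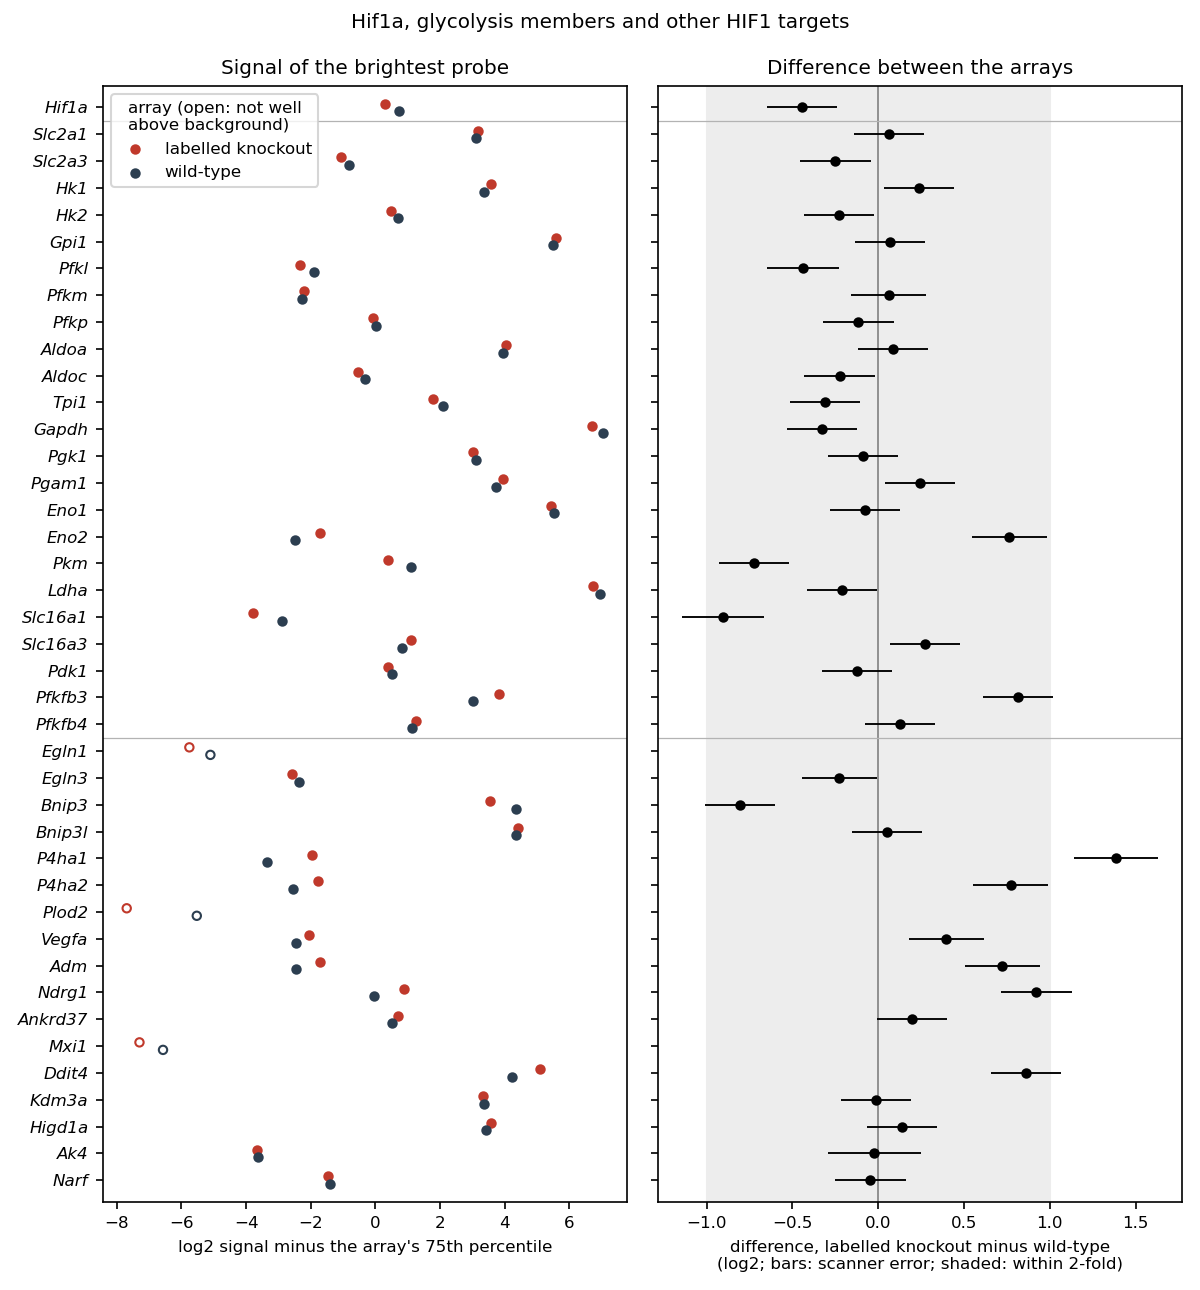
Signal of each member's brightest probe on the KO array (red) and the WT array (dark blue), as log2 signal minus the array's 75th percentile (left), and the KO minus WT difference in log2 with scanner error bars (right); horizontal lines part Hif1a, glycolysis members and other targets. P4ha1, at 1.39, is the one point outside the shaded 2-fold band, and the 3 genes with open circles (Egln1, Plod2 and Mxi1) were detected on neither array and have no difference drawn.

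Hif1a, the oxygen-labile subunit, read 632 on the KO array and 900 on the WT array, a difference of -0.44 ± 0.20 from its 1 probe. The difference was below 0 under each scaling tried, between -0.20 and -0.44. In the authors' deposited table the KO value of this probe lies 7 whole log2 units under the scanner's, so that table gives no usable difference for it.

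The enzymes from hexokinase to lactate dehydrogenase were 16 of the members, of which 6 were higher and 10 lower on KO, none by 2-fold, with a median of -0.10 (0.09 with median centring, where 9 were higher and 7 lower). Of the 16, 6 lay within the scanner's error. The share higher was 37.5%, against 50.4% of all genes, whose median was 0.00 (0.19 with median centring). Glucose enters through Slc2a1 (GLUT1), the main carrier of activated T cells, which read 4710 on both arrays (0.07 ± 0.20). Slc2a3 (GLUT3), the higher-affinity carrier, read 246 on KO and 306 on WT (-0.25 ± 0.21). Hexokinase traps glucose as glucose 6-phosphate. The housekeeping form Hk1 read 6240 on KO and 5530 on WT (0.24 ± 0.20). Its second probe ran the other way, 29.1 on KO and 48.7 on WT (-0.68), at a mean log2 signal under 6, where the median over all probes was -0.35. Hk2, the inducible form and a classical HIF1 target, read 722 on KO and 884 on WT (-0.23 ± 0.20). The isomerase Gpi1 read 24800 on KO and 24700 on WT, and its 3 probes differed by 0.05 to 0.17.

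Phosphofructokinase commits the sugar to glycolysis, and its 3 subunit genes lay between -0.44 and 0.06. Pfkl, the liver-type subunit, read 103 on KO and 146 on WT (-0.44 ± 0.21). Pfkm, the muscle-type subunit, was spotted 9 times on KO and 10 times on WT after outlier spots were removed, and averaged 112 on KO and 113 on WT (0.06 ± 0.22, and -0.49 under normexp). Its spots had an SD of 0.04 on KO and 0.07 on WT in log2 units, so repeat spots on 1 array varied less than the scanner error of 0.22. Pfkp, the platelet-type subunit, read 489 on KO and 554 on WT (-0.11 ± 0.20), while its dimmer probe read 24.7 on KO and 52.4 on WT, a difference of -1.02. The dimmer probe also had a mean log2 signal under 6, where the median over all probes was -0.35. Aldolase then cleaves the sugar: Aldoa read 8570 on KO and 8450 on WT (0.09 ± 0.20), and Aldoc, the brain-type form, 359 on KO and 439 on WT (-0.23 ± 0.21). Tpi1, which interconverts the triose phosphates, read 1780 on KO and 2310 on WT (-0.31 ± 0.20), and 324 on KO and 592 on WT on its dimmer probe (-0.80).

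The pay-off steps make ATP and NADH. Gapdh, which yields the NADH, read 54400 on KO and 71500 on WT on its brightest probe (-0.33 ± 0.20), and its other 6 probes are described further on. Pgk1, the first ATP-yielding enzyme, read 4240 on KO and 4710 on WT (-0.09 ± 0.20). Pgam1, which moves the remaining phosphate, read 8100 on KO and 7150 on WT (0.25 ± 0.20). The 2 enolases parted. Eno1, the form of most cells, read 22500 on KO and 24800 on WT (-0.08 ± 0.20), and Eno2, the neuron-type form that HIF1 also raises, read 158 on KO and 97.4 on WT (0.76 ± 0.22). Under normexp the Eno2 difference was -0.06 and that of Eno1 2.46, the WT spot of Eno1 having a median pixel intensity (22497 on KO and 5122.5 on WT) far under its processed signal. Pkm, the pyruvate kinase of T cells, read 677 on KO and 1170 on WT, 1.65-fold lower on KO (-0.72 ± 0.20), and stayed between -0.53 and -0.74 under the scalings of background, centre and curve. It had 1 probe, far dimmer than the brightest probes of Gapdh, Eno1 and Ldha, and which of the gene's transcripts that probe reads was not tested. Ldha, which turns pyruvate to lactate, read 55100 on KO and 66600 on WT (-0.21 ± 0.20). Its other probes read 1130 on KO and 1260 on WT (-0.09), and 238 on KO and 329 on WT (-0.40). Normexp put the brightest Ldha probe at 1.52, and its median pixel intensity was 53665 on KO and 23844 on WT.

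The 2 lactate exporters went in opposite directions. Slc16a1 (MCT1) read 37.4 on KO and 73.2 on WT, 1.87-fold lower on KO (-0.90 ± 0.24), the lowest difference among the members. It was below 0 under each scaling tried. Its mean log2 signal was under 6, and all probes of that range had a median of -0.35 and 12.8% at least 2-fold lower. Slc16a3 (MCT4), the low-affinity exporter that HIF1 raises, read 1110 on KO and 961 on WT (0.27 ± 0.20), and its second probe, 822 on KO and 718 on WT, gave 0.26.

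Among the flux regulators, Pfkfb3, which makes the activator of phosphofructokinase, read 7360 on KO and 4370 on WT, 1.76-fold higher on KO (0.82 ± 0.20). Its dimmer probe, tied to another RefSeq transcript, read 21.2 on KO and 33.7 on WT, a difference of -0.60. The mean log2 signal of that probe was under 6, where the median over all probes was -0.35. The other enzyme of this kind, Pfkfb4, read 1230 on KO and 1180 on WT (0.12 ± 0.20). Pdk1, which blocks the entry of pyruvate into mitochondria, read 675 on KO and 770 on WT (-0.12 ± 0.20). By its brightest probe Pfkfb3 had the highest difference of the 23 glycolysis members, and its 2 probes, of very unequal signal, disagreed in sign.

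Of the 14 other HIF1 targets 9 (64.3%) were higher on KO, against 50.4% of all genes. The count was 12 with median centring, 11 with quantile normalization or loess, and 7 under normexp. Beyond the scanner's error were 6 that were higher (42.9%, against 29.9% of all genes) and 2 that were lower (14.3%, against 30.6%). Among the higher ones, P4ha1, P4ha2, Vegfa and Adm were at 0.04 or below under normexp. The enzymes that hydroxylate collagen prolines were higher on KO in both measured forms, though not under normexp for P4ha2. P4ha1 read 134 on KO and 53.6 on WT, 2.62-fold higher on KO (1.39 ± 0.24). Its second probe read 70.3 on KO and 61.4 on WT (0.26), and so was the brighter one on WT. The first was taken because of its KO signal, and normexp reduced it to 0.04. P4ha2 read 153 on KO and 93.7 on WT (0.77 ± 0.22), a difference that normexp turned to -0.11. Plod2, a lysyl hydroxylase, was detected on neither array (2.51 on KO and 11.8 on WT).

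The secreted factors were higher on KO by the processed signal and lower under normexp. Vegfa, the endothelial growth factor, read 125 on KO and 99.4 on WT (0.40 ± 0.22), and -0.34 under normexp. Adm, the vasodilator peptide adrenomedullin, read 157 on KO and 99.5 on WT (0.72 ± 0.22), and -0.10 under normexp. These 2 genes, P4ha2 and Eno2 had KO signals between 125 and 158, and all 4 were below 0 under normexp. Quantile normalization and loess kept all 4 above 0. The values were 0.50 and 0.55 for Vegfa, 0.81 and 0.87 for Adm, 0.87 and 0.92 for P4ha2, and 0.85 and 0.91 for Eno2. Normexp also lowered dim members near 0, such as Ak4 (-0.02 to -0.84) and Narf (-0.05 to -0.37). It raised bright ones such as Slc2a1 (0.07 to 0.32).

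Ddit4 and Ndrg1, both induced by stress, were higher on KO under each scaling. Ddit4 (REDD1), an inhibitor of mTORC1, read 17700 on KO and 10200 on WT, 1.82-fold higher on KO (0.86 ± 0.20), and 0.84 to 1.17 under the other scalings. Ndrg1, a gene induced by hypoxia in many cell types, read 965 on KO and 533 on WT, 1.89-fold higher on KO (0.92 ± 0.20), and 0.88 to 1.11 under the other scalings. Each was read by 1 probe, so no second probe bears on either.

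The mitophagy receptors differed from one another. Bnip3 read 6080 on KO and 11100 on WT, 1.75-fold lower on KO (-0.80 ± 0.20). Its second probe gave nearly equal signals, 552 on KO and 555 on WT (0.06). Another Bnip3 probe was detected on KO alone, 42.0 on KO and 9.46 on WT, at least 1.79-fold higher on KO when the lowest detected WT signal, 24.6, is taken as the floor. Bnip3l (NIX) read 11000 on KO and 11100 on WT (0.05 ± 0.20), and its 4 probes lay between 0.05 and 0.25. No single direction can be given for Bnip3.

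Of the oxygen sensors, which mark HIF1α for destruction, Egln3 (PHD3) read 86.6 on KO and 106 on WT (-0.23 ± 0.22), and 25.1 on KO and 36.5 on WT on its second probe (-0.48). The mean log2 signal of the second probe was under 6, where the median over all probes was -0.35. Egln1 (PHD2) was not detected, at 9.62 on KO and 15.8 on WT, and neither was Mxi1, a MYC antagonist, at 3.30 on KO and 5.72 on WT. Bnip3l and 5 further targets lay within the error. Kdm3a, a histone demethylase, read 5260 on KO and 5560 on WT. Higd1a, a mitochondrial protein, read 6150 on KO and 5850 on WT, with differences of 0.14 and 0.02 from its 2 probes. Ankrd37 read 845 on KO and 772 on WT, and Narf 189 on KO and 204 on WT. Ak4, an adenylate kinase of mitochondria, read 41.3 on KO and 43.9 on WT.

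**Figure D2:**
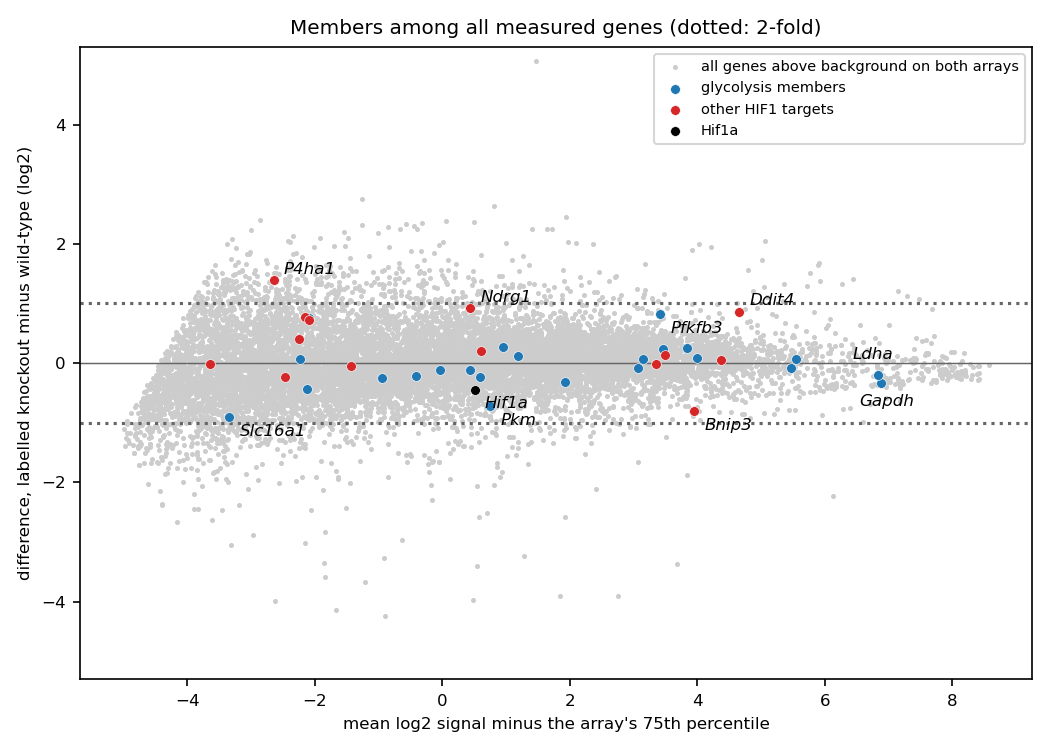
KO minus WT difference in log2 against the mean log2 signal minus the 75th percentile, for 12958 genes above background on both arrays (grey), glycolysis members (blue), other HIF1 targets (red) and Hif1a (black). Dotted lines mark 2-fold, and the members lie inside the cloud of all genes at their signal, with P4ha1 the one above a line.

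Probes of a gene did not always read alike, and Gapdh had the most of them. Its 7 probes all carry the same RefSeq accession. The brightest gave -0.33, and the next, 12300 on KO and 18100 on WT, gave -0.49. The other 5 read 1480, 1430, 790, 503 and 216 on KO, and 3250, 2970, 1640, 1080 and 538 on WT in the same order, with differences of -1.07, -0.99, -0.99, -1.04 and -1.25. All 7 were lower on KO under each scaling (the brightest by -0.0039 under normexp), with a median of -0.99 and an SD of 0.34 over probes, and 3 of the 7 were at least 2-fold lower, against 4.31% of all probes. Over all 16417 probes above background on both arrays, 4.40% were at or below -0.99. The 5 probes lie at mean log2 signals from 8 to 12, where the median over all probes was -0.01 (8 to 10) and 0.05 (10 to 12). The mouse genome holds many processed copies of Gapdh, and the files do not say where along the transcript each probe lies, so what each of the 7 reads was not tested.

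**Figure D3:**
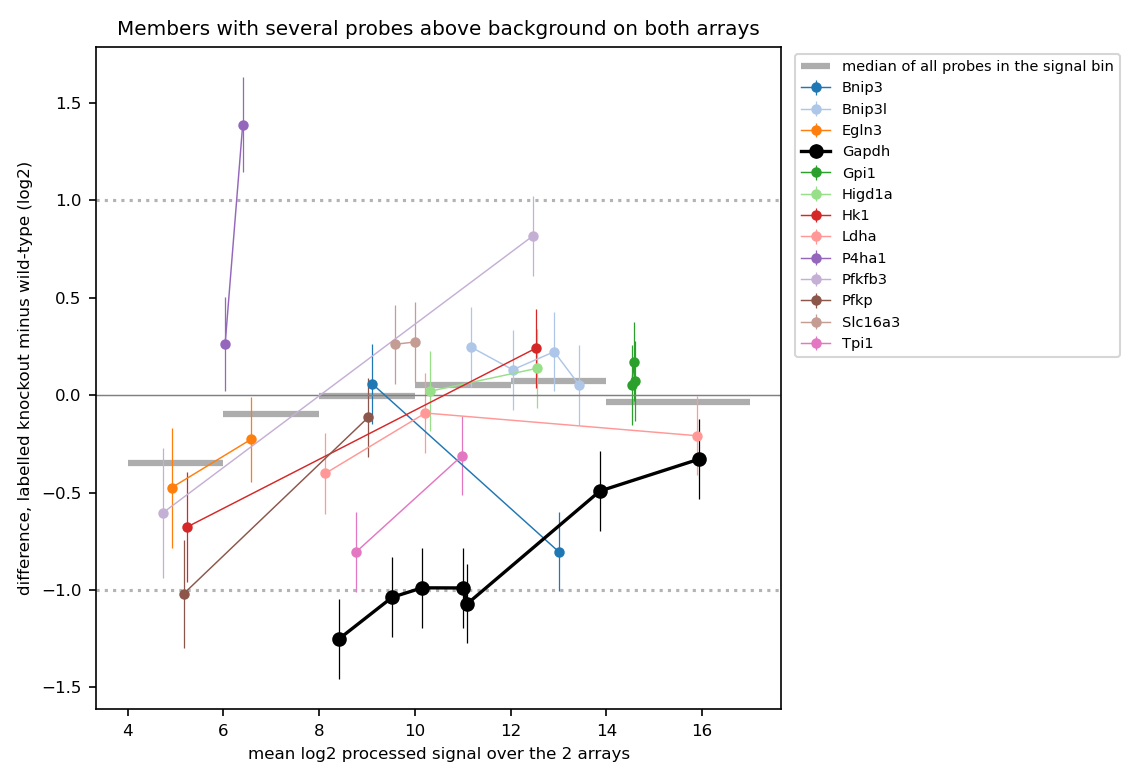
KO minus WT difference in log2 (bars: scanner error) against mean log2 signal for each probe of the 13 members with several probes above background on both arrays, lines joining probes of a gene. Thick grey bars give the median of all probes in a signal range, and the 7 Gapdh probes (black) run from -0.33 at the bright end to -1.25 at the dim end.

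Among the 13 members with several such probes, the dimmest probe gave the lower difference in 11, with a median gap of -0.25 between dimmest and brightest. This held for 8 of 8 glycolysis members (median gap -0.70) and 3 of 5 other targets. The gaps of Gpi1 (-0.02), Slc16a3 (-0.01), Ldha (-0.19), Higd1a (-0.12) and Bnip3l (0.19) were within the error of the pair (0.29). So was the gap of Egln3 (-0.25, with an error of 0.38). The dimmest probes of Hk1, Pfkfb3, Pfkp and Egln3 had mean log2 signals under 6, where the median over all probes was -0.35. Over all 2902 genes with several probes the dimmest gave the lower difference in 1884 (64.9%), with a median gap of -0.14. In 3 members, Hk1, Pfkfb3 and Bnip3, brightest and dimmest probes had opposite signs and a gap larger than the error of the pair, and the same held for 855 of the 2902 genes. The dimmest Bnip3 probe lay within its own error. Of the 60 member probes detected on both, 1 reached 2-fold higher (P4ha1), against 3.44% of all probes, and 4 reached 2-fold lower (3 of Gapdh and 1 of Pfkp), against 4.31%.

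Genes of the same pathways outside the 41 were read in 6 lists of 79 genes, of which 67 were detected on both arrays, 35 higher and 32 lower on KO. Past the call threshold were 2 that were higher, against 3.95% of all genes, and none that was lower, against 3.63%, and the median was 0.02. With median centring the balance in each list moved up with all genes. Of 10 other glycolytic isozymes 6 were higher and 4 lower, none by 2-fold. Pklr, the pyruvate kinase of liver and red cells, was detected on WT alone, 1.95 on KO and 69.1 on WT, at least 6.88-fold lower on KO. It was picked out after its values were seen. In the pentose phosphate pathway 2 of 7 genes were higher and 5 lower (5 and 2 under normexp), with Pgls, its lactonase, at 118 on KO and 226 on WT (-0.87 ± 0.21). Among 11 genes of pyruvate entry into mitochondria 5 were higher and 6 lower (2 and 9 under normexp), and Pdk4, another kinase that blocks entry, read 82.7 on KO and 45 on WT (0.94 ± 0.27).

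Of 10 HIF subunits and regulators, 8 were higher and 2 lower, 8 of the 10 within the error. Hif3a, a HIF subunit that can oppose HIF1, read 707 on KO and 357 on WT (1.05 ± 0.21), but 89.1 on KO and 96.3 on WT on a second probe (-0.05). Among 23 further HIF1 targets 11 were higher and 12 lower. The largest difference was that of Ppfia4, a liprin, at 864 on KO and 438 on WT (1.05 ± 0.20), but 23.9 on KO and 60.3 on WT on its second probe (-1.27). Of 6 MYC and carbohydrate response factors 3 were higher and 3 lower, and Myc, which also drives glycolytic genes in activated T cells, read 502 on KO and 631 on WT (-0.26 ± 0.20). No list had more than 1 gene past 2-fold.

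Markers of other cell types and of proliferation differed between the arrays beside these values, and their part in the results was not tested. All 8 proliferation genes were lower on KO (median -0.72, and -0.49 under normexp, summed signal 9926 on KO and 15952 on WT). Of 8 B cell markers 7 were lower on KO (5 with median centring or normexp, median -0.32, sums 88963 on KO and 108346 on WT), and Ms4a1 (CD20) alone read 35900 on KO and 50400 on WT. Markers of macrophages and dendritic cells were higher in 7 of 9 (8 with median centring and 6 under normexp, median 0.45, and 0.20 under normexp, sums 84498 on KO and 84896 on WT). Those of CD8 and NK cells were higher in 7 of 8 (4 under normexp, median 0.57, and 0.04 under normexp, sums 33858 on KO and 15153 on WT). Those of granulocytes and mast cells were higher in 6 of 8 (5 under normexp, median 0.32, and 0.14 under normexp, sums 128254 on KO and 125332 on WT). The sums are of unscaled signals, and most of each of these came from 1 gene. These were Siglech (67500 on KO and 74900 on WT), Klra1 (24700 on KO and 8790 on WT) and S100a9 (89000 on KO and 92000 on WT). T cell markers were higher in 6 of 10 (8 with median centring or normexp, median 0.13, and 0.38 under normexp, sums 81210 on KO and 79610 on WT). Red cell and stroma markers were higher in 3 of 7 (4 with median centring, median -0.04, sums 5343 on KO and 4110 on WT). Of the 6 Th9 markers 3 were detected on both arrays, 2 of them higher (1 under normexp). No marker with a value was at 0, and in RNA of bulk cultures fewer cells of a type and less RNA per cell cannot be told apart.

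**Figure D4:**
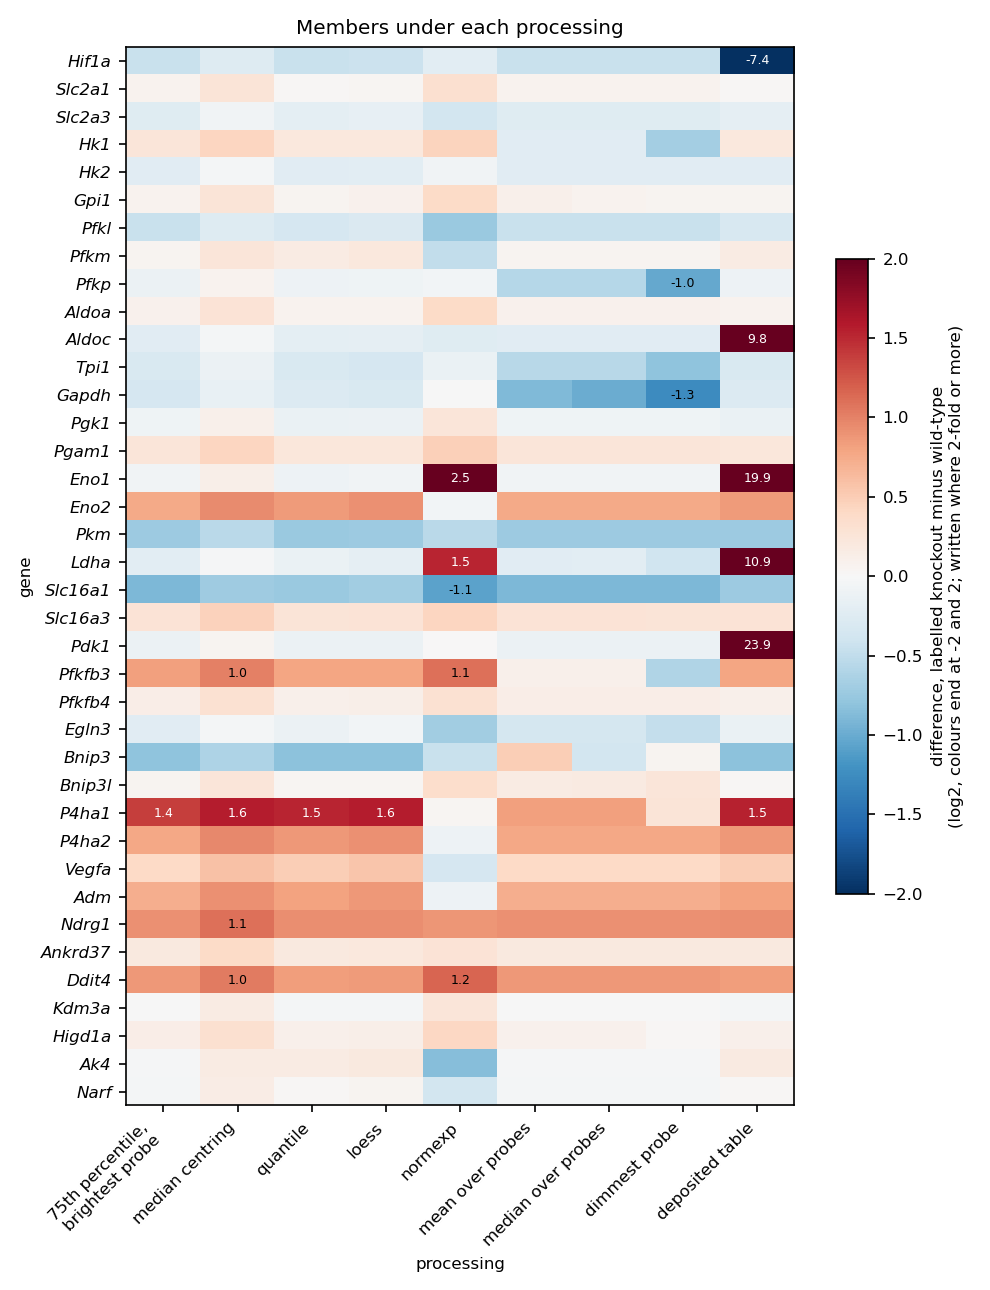
KO minus WT difference in log2 (colour, blue lower and red higher on KO) of the 38 members measured on both arrays, under 9 ways of processing, with the value written where it reaches 2-fold. P4ha1 is past 2-fold in 5 of the 9. Eno1 and Ldha pass it in the authors' deposited table and under normexp, where their WT median pixel intensity is far under the processed signal. The deposited values of Hif1a, Aldoc, Eno1, Ldha and Pdk1 differ from the scanner's by whole log2 units.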

How the data were processed

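The 41 members and the pathway and marker lists were chosen with earlier results of these data known. Per the file headers, both arrays lay on the same slide, were read in the same scan and were extracted with Agilent Feature Extraction, version 11.0.1.1 per the submitters' processing notes. In the scanner files as deposited, the processed signal of a spot is an intensity after background subtraction by that software, and an error, a median pixel intensity and flags stand beside it. A second deposited table carries the authors' own log2 values, with a column median of 5.36 for KO and 5.36 for WT. They rise with the scanner signal, and their normalization and centring are not given in the sources used here.

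From these, outlier spots were removed (138 on KO and 228 on WT of 43020 each), spots of a probe were averaged, and log2 signal minus the array's 75th percentile was taken. RefSeq accessions without their version tied 27220 of 39411 probes to genes of a GRCm38.p6 table. The headers name another build, so no array coordinates are printed. A gene is read by the brightest of its probes that 1 or both arrays detected (well above background), and called at 2-fold where both detected it. Brightest means the highest mean log2 signal over both arrays, so the signals compared also choose the probe. The number of arrays limits the precision, and no test could be run. All members are named. Of each pathway list at most 2 genes are named, by size of difference if it is 1 or more, and otherwise the single largest, and at most 2 of a marker list. Of the genes that this rule takes, 1 is not reported here.

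The alternatives were median centring, quantile normalization, loess with a span of 0.3 and normexp with an offset of 50 (limma 3.58.1 in R 4.3.3; the files hold no mean pixel intensity, so the median was used), the authors' deposited log2 values, averaging over probes, no filter or a filter at the median gene, and calls at 1.5-fold or 3-fold. The dimmest probe and the median over probes were added after the data were seen. Python 3.11.15 with pandas 2.3.3 and numpy 2.4.6 did the rest, and the steps were tested on simulated data.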

Additional observations from a re-analysis of the deposited data

How the results depend on the processing

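No paired analysis was possible because each genotype has 1 array. No glycolysis member passed 2-fold on the processed signal. With median centring 1 did (Pfkfb3), under normexp 4 did (Eno1 at 2.46, Ldha at 1.52 and Pfkfb3 higher, Slc16a1 at -1.06 lower), 4 did in the authors' deposited table, at 1.5-fold 4 did, and by the dimmest probe 2 did (Gapdh at -1.25 and Pfkp at -1.02). The normexp values of Eno1 and Ldha rest on WT median pixel intensities far under the processed signal. These were 5122.5 against 24800 for Eno1 and 23844 against 66600 for Ldha, and the cause was not tested. Of the other HIF1 targets, 1 passed 2-fold on the processed signal and also with quantile normalization, loess, normexp (then Ddit4, at 1.17) and the deposited table. With median centring 3 passed (P4ha1, Ndrg1 and Ddit4), without a background filter 2 (P4ha1 and Plod2, which neither array detected), at 1.5-fold 6, at 3-fold 0, and 0 for the mean over probes, for the dimmest probe, for the median over probes and at signals at or above the median gene, a filter that leaves P4ha1 out. The medians of both groups moved by less than the median scanner error under each alternative. P4ha1, the member past 2-fold, did not turn in sign. Of the 38 members the sign differed in 7 with median centring, in 10 under normexp and in 2 each with quantile normalization and loess.

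The 4 glycolysis genes past 2-fold in the deposited table (Aldoc, Eno1, Ldha and Pdk1) are those whose deposited values there lie whole log2 units from the scanner's, 6 (KO) and -4 (WT) for Aldoc, 14 (KO) and -6 (WT) for Eno1, -11 (WT) for Ldha and 24 (KO) for Pdk1, and the cause was not tested.

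Over all genes the split of calls moved with the scaling: 512 higher and 471 lower on the processed signal, 801 and 292 with median centring, 614 and 349 with quantile normalization, 654 and 341 with loess, 206 and 1179 under normexp, 631 and 357 in the deposited table, and 1100 and 4291 with no background filter. At mean log2 signals up to 6, 12.8% of probes were at least 2-fold lower on KO. With 1 array for each genotype, the spread between mice or cultures cannot be told apart from the genotype.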
